A study of Danio rerio with 16 samples.

Results

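Zebrafish larvae express a set of genes in the distal part of the gut that recover bile acids and take up protein from the gut lumen. The 7 genes described here, fabp6, slc10a2, cubn, amn, dab2, lrp2b and lgmn, were chosen by name from 26183 genes with counts in the deposited tables. All 7 had a row in all 3 tables, and all 7 were among the 19092 genes with enough reads to be tested. Whole larvae of the zebrafish (Danio rerio), aged 7 days, had been exposed for 7 days to the solvent dimethyl sulfoxide as control (n = 4) or to PFBA, perfluorobutanoic acid, a perfluoroalkyl acid with a short carbon chain, at 0.1 µg/L (n = 3), 1 µg/L (n = 4) or 10 µg/L (n = 5). The labels name no strain, no number of larvae per sample and no batch, and nothing in them tells whether samples came from separate exposures, so p-values measure the spread between these samples, which may in part be technical. Libraries are named by the number in the deposited column names.

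In vertebrates, bile acids that have served fat digestion are recovered at the end of the small intestine: a sodium-coupled transporter in the apical membrane imports them and a cytosolic carrier protein binds them inside the enterocyte. The zebrafish gut has no anatomically separate ileum, but a posterior segment of the larval intestine holds ileum-like enterocytes, followed by lysosome-rich enterocytes, cells that endocytose dietary protein and digest it in large lysosomes. Their endocytic machine is a receptor complex at the cell surface, an adaptor that links it to clathrin, and proteases in the lysosome.

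In the role of bile acid recovery, slc10a2 encodes the apical sodium-dependent bile acid transporter and fabp6 the ileal bile acid binding protein. As endocytic receptors, cubn encodes cubilin, a large ligand-binding protein, amn encodes amnionless, which anchors cubilin in the membrane, and lrp2b is 1 of the zebrafish genes for megalin, a receptor of the low-density lipoprotein receptor family. The adaptor is dab2, and lgmn encodes legumain, a lysosomal protease that cuts after asparagine. Outside the gut, cubilin, amnionless, Dab2 and megalin also serve protein uptake in the kidney tubule, and dab2 and lgmn are also used by macrophages and scavenger endothelial cells, so a whole larva does not give gut values alone for these genes. Values of slc10a2 and fabp6 came from whole larvae as well, and the tissues they came from were not examined here. In such bulk samples, fewer cells of a type and less RNA per cell cannot be told apart.

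In the coordinates of the tables, which the submitters' processing notes place on the zebrafish build GRCz11, the genes lay on 7 chromosomes: fabp6 at chr21:30043054-30047353 on the plus strand, slc10a2 at chr9:27339505-27344683 (plus), cubn at chr24:32035759-32150276 (minus), amn at chr3:56876280-56877918 (plus), dab2 at chr5:32323775-32338872 (minus), lrp2b at chr12:16132612-16229402 (plus) and lgmn at chr13:36037970-36050327 (minus). All 7 were annotated as protein coding. The gene length that the tables give ran from 508 bases for fabp6 to 14302 bases for lrp2b.

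Libraries held between 9708464 and 13862232 counted reads. Of the 3 libraries at 0.1 µg/L, libraries 1 and 2 were unlike the other 14 in the study. A principal component that held 38.9% of the variance of log2 CPM, where CPM is a count scaled for library depth, placed them at 174.7 and 101.2, against -43.8 to 9 for the rest. Scaling factors by trimmed mean of M values (TMM) were 0.581 and 0.742 for these libraries, against 0.928 to 1.14. The fold changes of the 7 genes at 0.1 µg/L are therefore given with and without them.

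Per length, the 7 genes covered a wide range of levels in control larvae. fabp6 was at the top with 238 ± 110 RPKM (here CPM divided by the gene length in kilobases; SD, n = 4), above 98.8% of the tested genes. lgmn followed with 42.3 ± 2.04 RPKM, then slc10a2 with 5.0 ± 2.11 RPKM and dab2 with 3.48 ± 0.802 RPKM, whose libraries overlapped. Both lay near the middle of all genes, above 55.4% and 46.8% of them. amn had 1.59 ± 0.684 RPKM and cubn 0.78 ± 0.359 RPKM, which overlapped as well, although their products form 1 receptor. lrp2b was lowest with 0.176 ± 0.0473 RPKM, above 1.66% of the tested genes. The mean of fabp6 was 1350 times that of lrp2b. The spread between control libraries also differed between genes: fabp6 ran over a 4.03-fold range of CPM, amn over a 3.46-fold and cubn over a 3.17-fold range, against 1.12-fold for lgmn.

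Of the 7 genes, 0 passed the test at 10 µg/L against control, where 0.225% of the tested genes were called at an adjusted p below 0.05 by edgeR's quasi-likelihood test. None of the 7 was called at 1 µg/L either, where the share over all genes was 0.0681%, or at 0.1 µg/L, where it was 0%. There 4157 genes, 21.8% of those tested, had an unadjusted p below 0.05, and DESeq2 called 1269 genes. At an unadjusted p below 0.05 the 7 genes held 1 gene at 10 µg/L (slc10a2), 2 at 1 µg/L (slc10a2 and lgmn) and 2 at 0.1 µg/L (fabp6 and dab2). For all genes that share was 8.23% at 10 µg/L and 4.89% at 1 µg/L. The median log2 fold change over the 7 genes was 0.46 at 0.1 µg/L, 0.09 at 1 µg/L and -0.06 at 10 µg/L, beside -0.09, -0.02 and -0.02 over all genes.

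**Figure D1:**
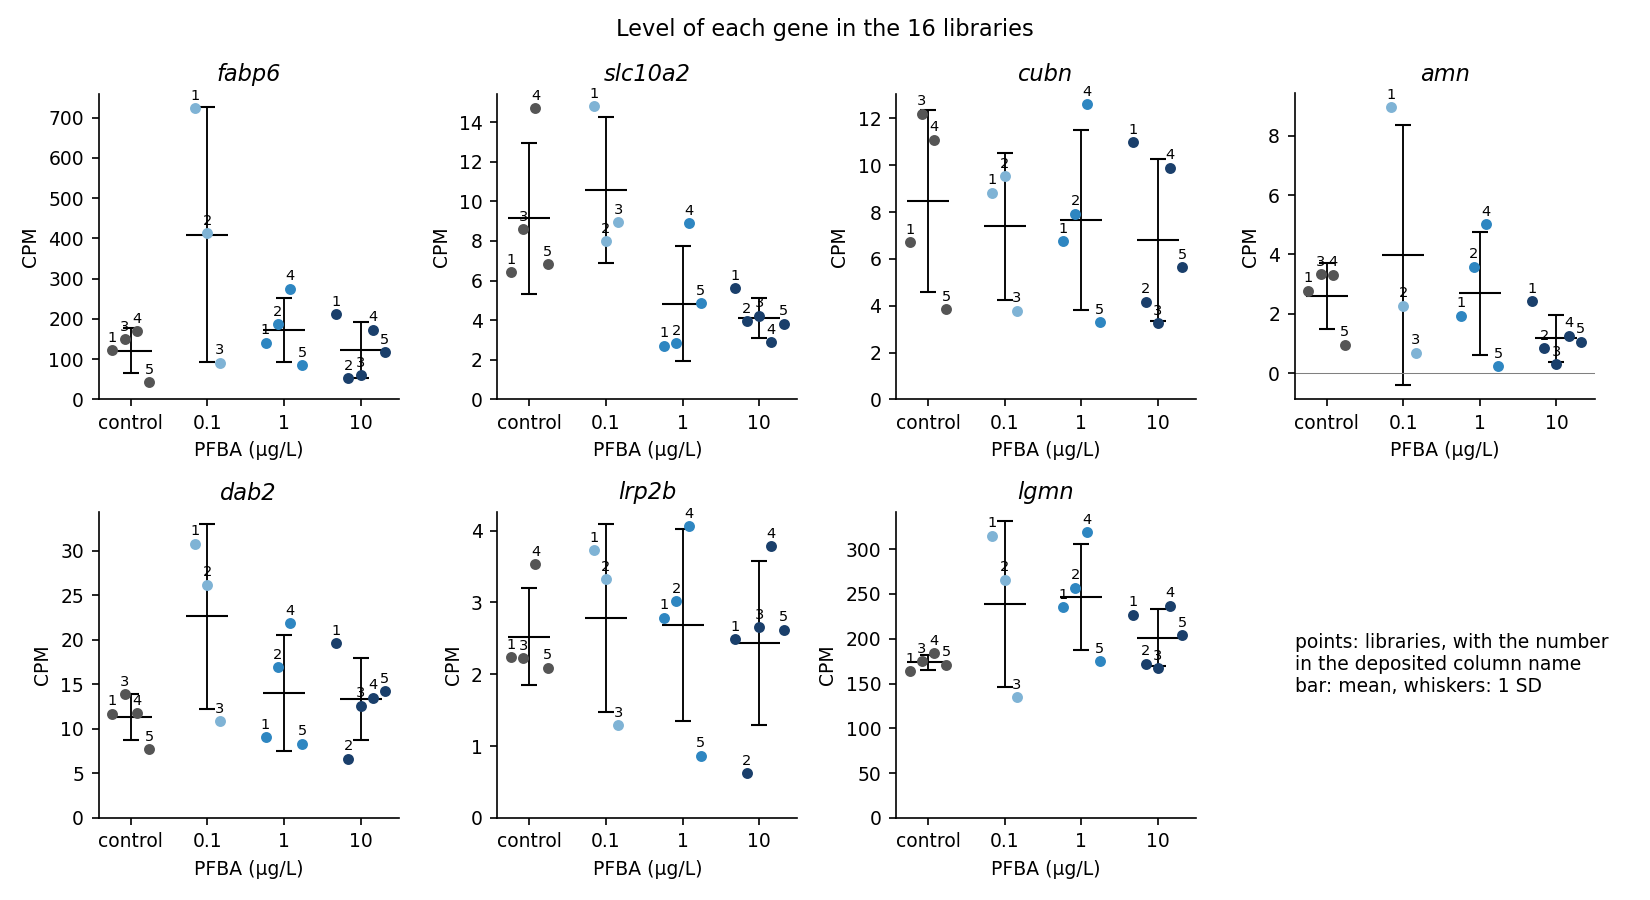
Level of each of the 7 genes, in CPM with TMM-scaled library sizes on a linear axis, in the 16 libraries by dose. Points are libraries with their number, horizontal bars are group means and whiskers 1 SD. The 5 libraries at 10 µg/L lie below all 4 control libraries for slc10a2 (2.88 to 5.63 CPM against 6.41 to 14.7 CPM), whereas the groups overlap for the other 6 genes.

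The bile acid importer slc10a2 was the gene of the set with the lowest p at 10 µg/L. It had 6.41, 8.6, 14.7 and 6.83 CPM in control libraries 1, 3, 4 and 5, then 14.8, 7.99 and 8.96 CPM in libraries 1, 2 and 3 at 0.1 µg/L, 2.71, 2.83, 8.91 and 4.87 CPM in libraries 1, 2, 4 and 5 at 1 µg/L, and 5.63, 3.95, 4.23, 2.88 and 3.82 CPM in libraries 1 to 5 at 10 µg/L. All 5 libraries at 10 µg/L and 3 of 4 at 1 µg/L lay below every control library, while the libraries at 0.1 µg/L overlapped the controls. Of all tested genes, 540 (2.83%) lay without overlap below control at 10 µg/L. The mean was 4.1 ± 0.992 CPM at 10 µg/L (SD, n = 5) and 9.15 ± 3.85 CPM in control larvae (SD, n = 4).

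The fitted level of slc10a2 at 10 µg/L was 2.23-fold lower than in control larvae (log2 fold change -1.15, standard error 0.36, 95% interval -1.95 to -0.36), with an unadjusted p of 0.00551 and an adjusted p of 0.279 by edgeR's quasi-likelihood test, so it was not called. In the authors' deposited table the same change stood at a log2 fold change of -1.13 with an adjusted p of 0.0254, which is below 0.05. Over 25 alternative settings the log2 fold change lay between -1.30 and -0.82, its adjusted p (edgeR, DESeq2 or limma) between 0.121 and 0.688, and 0 of them called the gene. Among these settings DESeq2 was run only on all 16 libraries, and the compared groups alone were fitted only with edgeR. The value nearest 0 came without control library 4, the control library with the highest slc10a2 level.

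At 1 µg/L the log2 fold change of slc10a2 was -0.92 (standard error 0.39, 95% interval -1.76 to -0.08), with an unadjusted p of 0.0292 and an edgeR adjusted p of 0.985. Library 4 at 1 µg/L, at 8.91 CPM, lay inside the control range, and the log2 fold change without it was -1.38. Without control library 4, the highest control library, it was -0.59. With 1 and 10 µg/L pooled it was -1.04 (standard error 0.31, edgeR adjusted p = 0.29), in a comparison that called 0 of the 7 genes and 0.314% of all genes. At 0.1 µg/L the log2 fold change was 0.21 (standard error 0.41, edgeR adjusted p = 0.778), and -0.0029 from library 3 alone.

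Between the doses, slc10a2 was the 1 gene of 7 that passed the test. In larvae at 10 µg/L it was 2.57-fold lower than at 0.1 µg/L (log2 fold change -1.36, standard error 0.39, edgeR adjusted p = 0.0366), in a comparison that called 2025 genes, 10.6% of those tested, with 7.34% of the tested genes called lower. With 1 library left out, that count lay between 86 (library 1 of the 0.1 µg/L group) and 7151 (library 3 of that group). It also moved by over 1.5 times without library 2 of the 0.1 µg/L group or library 2, 3 or 5 of the 10 µg/L group, and DESeq2 called 3426 genes. The call of slc10a2 was lost without library 1 at 0.1 µg/L (log2 fold change -1.05, edgeR adjusted p = 0.24) and without library 2 at 0.1 µg/L (-1.55, 0.0758). Leaving out library 2, 3, 4 or 5 of the 10 µg/L group also lost it, with edgeR adjusted p of 0.078, 0.0583, 0.0502 and 0.0715. Without both libraries that stood apart, the log2 fold change was -1.12, from 1 library left at 0.1 µg/L, which cannot decide whether the call holds.

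Between 1 and 0.1 µg/L 0 of the 7 genes were called, beside 0.194% of all genes, and the log2 fold change of slc10a2 was -1.12 (edgeR adjusted p = 0.136). The count over all genes lay between 2 and 6096 with 1 library left out, the 6096 without library 3 at 0.1 µg/L. Between 10 and 1 µg/L 0 of the 7 and 0% of all genes were called by edgeR, with 550 genes (2.88%) at an unadjusted p below 0.05 and at most 7 genes called under any alternative. There the log2 fold change of slc10a2 was -0.24 (95% interval -1.04 to 0.57). A test of any difference among the 4 groups called 0 of the 7 and 2.34% of all genes, with slc10a2 at an edgeR adjusted p of 0.0916 and fabp6 at 0.164. With 1 library left out, its count of 447 genes lay between 58 (library 2 of the 0.1 µg/L group) and 5349 (library 3 of that group), and DESeq2 called 2378 genes. Leaving out any 1 library other than library 4 or 5 of the 1 µg/L group moved this count by over 1.5 times.

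fabp6, the cytosolic bile acid carrier, lay on both sides of the control mean at 10 µg/L. It had 123, 150, 170 and 42.2 CPM in control libraries 1, 3, 4 and 5, then 724, 413 and 91.2 CPM in libraries 1, 2 and 3 at 0.1 µg/L, 141, 186, 275 and 85.2 CPM in libraries 1, 2, 4 and 5 at 1 µg/L, and 211, 53.2, 59.6, 173 and 117 CPM in libraries 1 to 5 at 10 µg/L. The 2 highest of the 16 libraries were libraries 1 and 2 at 0.1 µg/L, and library 3 of that group lay within the control range. The log2 fold change was 0.02 at 10 µg/L (95% interval -1.14 to 1.18) and 0.50 at 1 µg/L (95% interval -0.72 to 1.73), so changes of more than 2-fold in either direction at 10 µg/L lie within the interval.

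The highest value of the set at 0.1 µg/L was that of fabp6, a log2 fold change of 1.76 (standard error 0.61, 95% interval 0.43 to 3.08), with an unadjusted p of 0.0101 and an edgeR adjusted p of 0.135. Its mean was 410 ± 317 CPM at 0.1 µg/L (SD, n = 3), against 121 ± 56.1 CPM in control larvae (SD, n = 4). DESeq2 on all 16 libraries called fabp6, with an adjusted p of 0.0409, whereas the authors' deposited adjusted p was 0.0767. Scaled by library size only, the log2 fold change was 1.09 (edgeR adjusted p = 0.219). Without libraries 1 and 2 the log2 fold change was -0.38, from library 3 alone. Without library 3 it was 2.23 with an edgeR adjusted p of 0.0127, in a fit that called 6256 genes. Other digestive genes were also high in libraries 1 and 2, and the anterior enterocyte genes in library 3 as well. The summed level of 8 liver markers was 4160, 3900 and 1210 CPM in libraries 1, 2 and 3 at 0.1 µg/L, against 317 to 1650 CPM in control larvae, and that of 21 anterior enterocyte genes was 2350, 1520 and 1230 CPM, against 367 to 1020 CPM. Their part in the fabp6 levels was not tested.

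The receptor genes cubn and amn showed wide spread within every group. cubn had 6.72, 12.2, 11.1 and 3.86 CPM in control libraries 1, 3, 4 and 5, then 8.83, 9.54 and 3.79 CPM in libraries 1, 2 and 3 at 0.1 µg/L, 6.75, 7.94, 12.6 and 3.3 CPM in libraries 1, 2, 4 and 5 at 1 µg/L, and 11, 4.18, 3.25, 9.9 and 5.66 CPM in libraries 1 to 5 at 10 µg/L. Each group ran from below 4 to above 9 CPM, and none stood apart from another. Its log2 fold change was -0.21 at 0.1 µg/L, -0.15 at 1 µg/L and -0.32 at 10 µg/L, the last with a 95% interval of -1.29 to 0.65. From library 3 alone the value at 0.1 µg/L was -1.13.

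amn, the membrane anchor of cubilin, rested on 3 to 72 reads per library, so that counting error weighs on its lowest values. It had 2.78, 3.34, 3.32 and 0.964 CPM in control libraries 1, 3, 4 and 5, then 8.95, 2.28 and 0.689 CPM in libraries 1, 2 and 3 at 0.1 µg/L, 1.94, 3.59, 5.01 and 0.236 CPM in libraries 1, 2, 4 and 5 at 1 µg/L, and 2.42, 0.852, 0.295, 1.26 and 1.06 CPM in libraries 1 to 5 at 10 µg/L. All 5 libraries at 10 µg/L lay below the control mean of 2.6 CPM, and 2 of them lay below every control library. The log2 fold change at 10 µg/L was -1.12 (standard error 0.74, 95% interval -2.73 to 0.49), with an edgeR adjusted p of 0.78. In size it was close to the -1.15 of slc10a2, with a wider standard error (0.74 for amn, 0.36 for slc10a2). At 1 µg/L the log2 fold change was 0.04, and at 0.1 µg/L it was 0.59 with all 3 libraries and -1.88 from library 3 alone.

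The megalin gene lrp2b was read at 8 to 51 reads per library. Its levels ran from 2.09 to 3.53 CPM in control larvae, from 1.29 to 3.73 CPM at 0.1 µg/L, from 0.864 to 4.06 CPM at 1 µg/L and from 0.62 to 3.78 CPM at 10 µg/L. The groups overlapped at every dose, and the log2 fold changes of 0.13 at 0.1 µg/L, 0.09 at 1 µg/L and -0.06 at 10 µg/L (95% interval -1.10 to 0.98) were all smaller than their standard errors of 0.48 to 0.55. The value at 0.1 µg/L from library 3 alone was -0.93. Its paralog lrp2a, which is also used by the pronephros and the brain, was the more abundant of the pair with 77.8 CPM in control larvae and had a log2 fold change of 0.10 at 10 µg/L.

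The clathrin adaptor dab2 had 11.7, 13.9, 11.8 and 7.71 CPM in control libraries 1, 3, 4 and 5, then 30.8, 26.2 and 10.9 CPM in libraries 1, 2 and 3 at 0.1 µg/L, 9.07, 16.9, 21.9 and 8.33 CPM in libraries 1, 2, 4 and 5 at 1 µg/L, and 19.6, 6.66, 12.6, 13.5 and 14.2 CPM in libraries 1 to 5 at 10 µg/L. The 2 highest libraries were those that stood apart at 0.1 µg/L. There the log2 fold change was 1.00 (standard error 0.40, unadjusted p = 0.0227, edgeR adjusted p = 0.176), and from library 3 alone it was -0.02. The summed level of 6 macrophage markers was 26.7, 28.0 and 21.7 CPM in libraries 1, 2 and 3 at 0.1 µg/L, all above the 12.7 to 16.2 CPM of control larvae. These CPM rest on the TMM factors, 0.581 and 0.742 in libraries 1 and 2, and sums scaled by library size only were not computed. The median log2 fold change of these markers was 0.72, with 0 of 6 called, and their part in the levels of dab2 and lgmn was not tested. At 1 and 10 µg/L the log2 fold change of dab2 was 0.31 and 0.24, with 95% intervals of -0.50 to 1.13 and -0.54 to 1.01.

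The protease gene lgmn had the least spread in control larvae, with 164, 175, 184 and 171 CPM in libraries 1, 3, 4 and 5. It had 315, 266 and 135 CPM in libraries 1, 2 and 3 at 0.1 µg/L, 235, 257, 319 and 175 CPM in libraries 1, 2, 4 and 5 at 1 µg/L, and 227, 172, 167, 237 and 204 CPM in libraries 1 to 5 at 10 µg/L. At 1 µg/L 3 of 4 libraries and at 10 µg/L 3 of 5 libraries lay above every control library. The log2 fold change was 0.51 at 1 µg/L (standard error 0.22, 95% interval 0.02 to 0.99), with an unadjusted p of 0.038 and an edgeR adjusted p of 0.998. At 10 µg/L it was 0.22 (95% interval -0.25 to 0.68), and at 0.1 µg/L it was 0.46 with all 3 libraries and -0.33 from library 3 alone. In the authors' deposited table the log2 fold change at 1 µg/L was 0.52 with an adjusted p of 0.239.

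**Figure D2:**
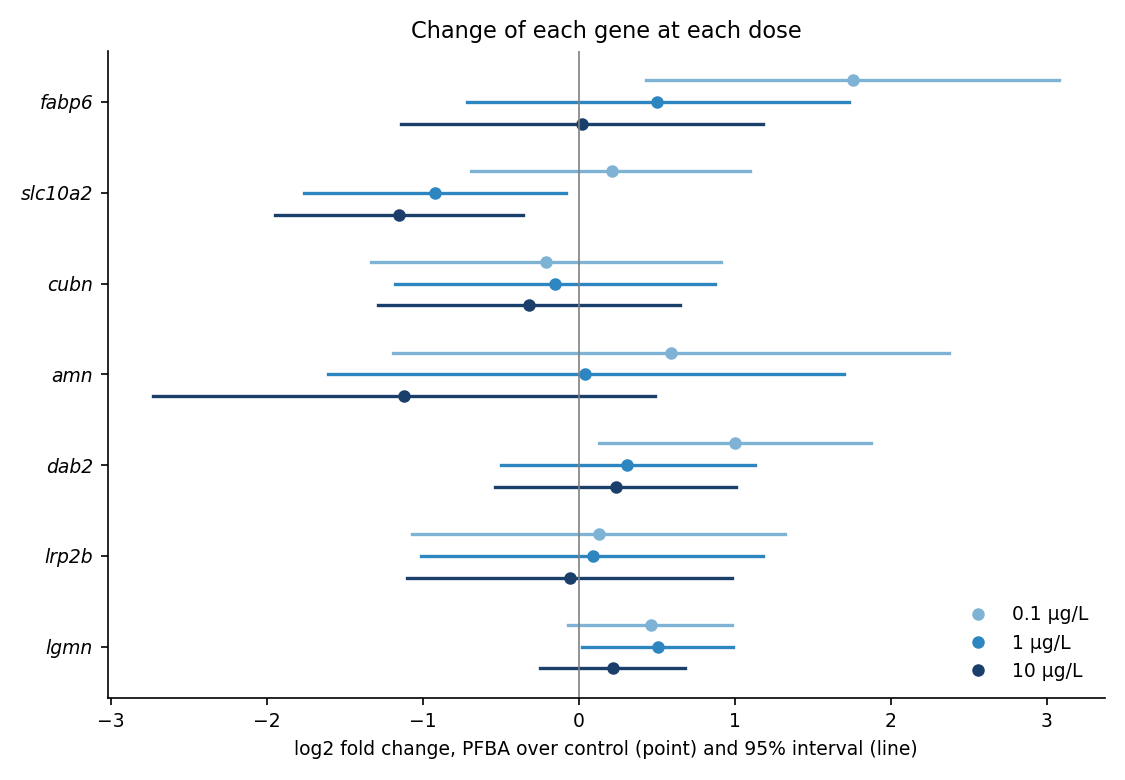
Log2 fold change of each of the 7 genes, PFBA over control, at 0.1, 1 and 10 µg/L (point) with its 95% interval from the fit of all 16 libraries (line). The interval of slc10a2 lies below 0 at 1 and 10 µg/L (-1.76 to -0.08 and -1.95 to -0.36), that of lgmn lies above 0 at 1 µg/L (0.02 to 0.99), and those of fabp6 and dab2 lie above 0 at 0.1 µg/L, where 2 of 3 libraries stood apart. No adjusted p against control was below 0.05 by edgeR in the fit of all 16 libraries. For fabp6 at 0.1 µg/L DESeq2 on all 16 libraries gave 0.0409, and the authors' deposited adjusted p was 0.0767. For slc10a2 at 10 µg/L the authors' deposited adjusted p was 0.0254, and DESeq2 on all 16 libraries gave 0.121.

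In each group, 1 library was the highest or the lowest for at least 5 of the 7 genes. The share over all genes was not computed. In control larvae library 5 was the lowest of 4 for 5 of 7 genes (fabp6, cubn, amn, dab2 and lrp2b). The highest control library was library 4 for 4 genes and library 3 for 3 genes. Library 1 at 0.1 µg/L, 1 of the 2 that stood apart, was the highest for 6 of 7 genes. Library 3 of that group was the lowest for 6 of 7. Among the libraries at 1 µg/L, library 4 was the highest for all 7 genes, and library 5 was the lowest for all but slc10a2. Library 1 at 10 µg/L was the highest for 5 of 7 genes, and libraries 2 and 3 were the lowest for 3 genes each.

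**Figure D3:**
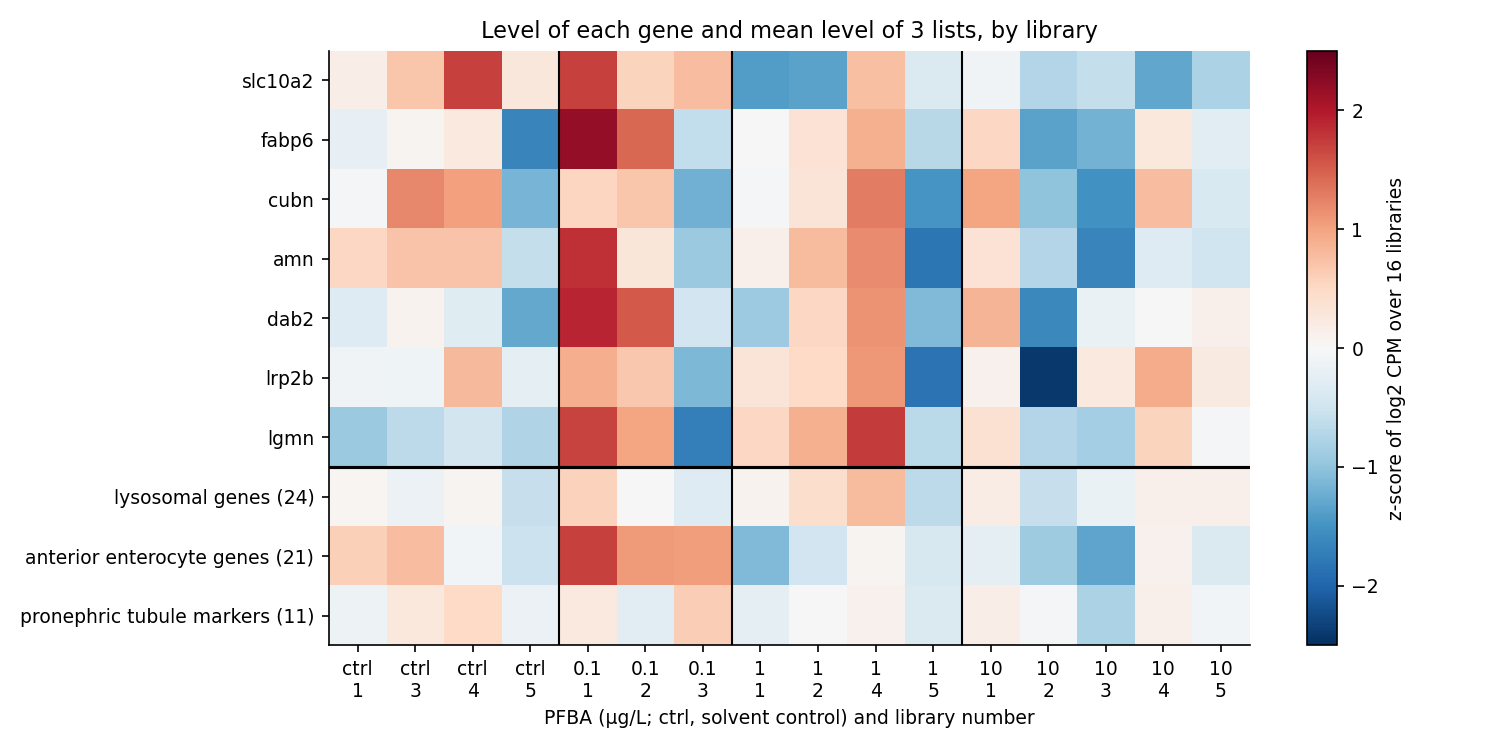
Levels of the 7 genes (upper rows) and mean levels of 24 lysosomal genes, 21 anterior enterocyte genes and 11 pronephric tubule markers (lower rows) in the 16 libraries, as z-scores of log2 CPM over all libraries. Libraries run from solvent control to 10 µg/L with the library number below each dose. Library 4 at 1 µg/L is above the mean in all 7 genes, and slc10a2 is below its mean in all 5 libraries at 10 µg/L.

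Over the 14 libraries without the 2 that stood apart, the 10 pairs among fabp6, cubn, amn, dab2 and lrp2b had Pearson correlations of log2 CPM between 0.59 and 0.89, with a median of 0.70. All 10 had a permutation p, adjusted by Benjamini-Hochberg over the 21 pairs of the 7 genes, below 0.05. With the group means removed, the correlations of these 10 pairs were between 0.63 and 0.94. Libraries share a depth and a scaling factor for all genes, and the correlation of fabp6 with all tested genes had a median of 0.03. Many genes outside the set correlated as highly. Over the 10 pairs, 0.0157% to 6.42% of the tested genes correlated with 1 gene of a pair as highly as its partner did. The share of all gene pairs with such a p was not computed.

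The closest pair was cubn and amn, the 2 parts of 1 receptor, with r = 0.89 and Spearman's rho = 0.90 (n = 14, permutation test, two-sided, adjusted p = 0.000525 for r and 0.00063 for rho). Without the 2 libraries farthest from the median of cubn, r was 0.83, and with group means removed it was 0.91. Of the tested genes, 0.0157% had a correlation with cubn as high as that of amn. For other pairs that share was larger: 6.42% of the tested genes correlated with fabp6 as highly as lrp2b did, and 5.51% with amn as highly as dab2 did. fabp6 and cubn followed with r = 0.88 and rho = 0.86 (n = 14, permutation test, two-sided, adjusted p = 0.000525 and 0.00199). For this pair r was 0.91 without the 2 libraries farthest from the median of fabp6, and 0.94 with group means removed. The lowest r over the 14 libraries was that of amn and dab2, r = 0.59 and rho = 0.65 (n = 14, permutation test, two-sided, adjusted p = 0.0414 and 0.0302). The lowest rho was that of cubn and lrp2b, 0.60, and with group means removed the lowest r was that of amn and lrp2b, 0.63.

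lgmn was linked to those 5 genes with r between 0.57 and 0.71, and all 5 pairs had an adjusted permutation p below 0.05. With group means removed the range was 0.76 to 0.85. As measured over the 14 libraries, between 1.26% (lrp2b) and 6.42% (amn) of the tested genes correlated with those 5 genes as highly as lgmn did. For slc10a2 the 6 pairs had r between -0.30 and 0.28 and rho between -0.38 and 0.20, and 0 of 6 passed. With group means removed its correlations were between 0.14 and 0.40, and over all 16 libraries, with the 2 that stood apart, between 0.04 and 0.46, with a median of 0.35 in place of 0.11. The lowest was with lgmn, r = -0.30 and rho = -0.38 (n = 14, permutation test, two-sided, adjusted p = 0.383 and 0.241), and its r was 0.26 with group means removed. slc10a2 with fabp6, the other bile acid gene, had r = 0.10 and rho = 0.03 (n = 14, permutation test, two-sided, adjusted p = 0.764 and 0.952). A difference between the correlations of slc10a2 and those of the other genes was not tested.

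**Figure D4:**
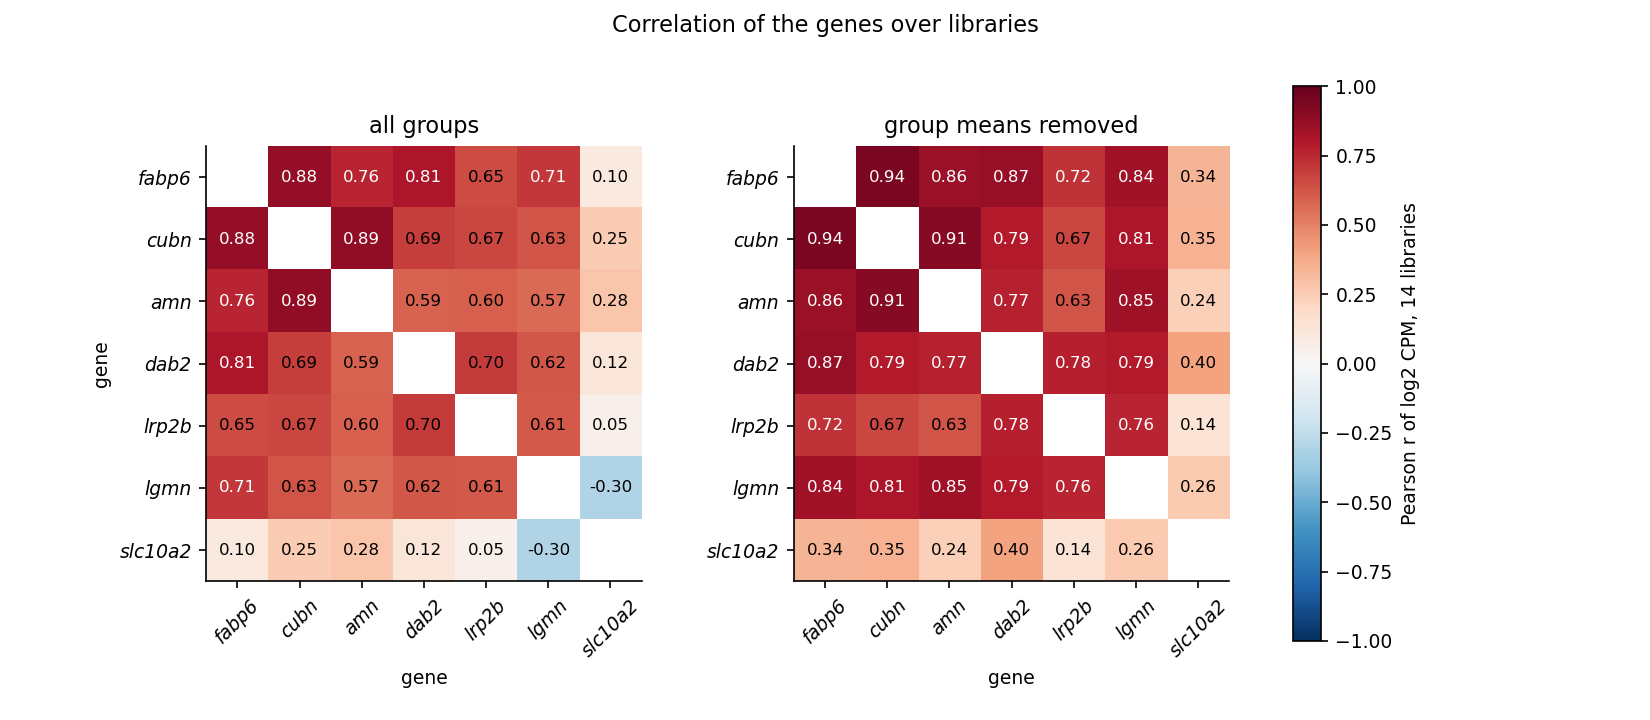
Pearson correlation of log2 CPM between the 7 genes over 14 libraries, as measured (left) and after subtracting each group's mean (right). The block of fabp6, cubn, amn, dab2, lrp2b and lgmn runs from 0.57 to 0.89 on the left and from 0.63 to 0.94 on the right. The row of slc10a2 runs from -0.30 to 0.28 on the left and from 0.14 to 0.40 on the right.

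Genes most like each of these were looked for among 13262 named genes with a mean of at least 2 CPM, by Pearson r of log2 CPM over all 16 libraries. For fabp6 the 5 nearest were epdl2 (r = 0.97), twist3 (0.95), krt97 (0.95), cyt1 (0.94) and dhdhl (0.94), with r between 0.88 and 0.96 over the 14 libraries. epdl2 encodes an ependymin-like secreted protein, twist3 a basic helix-loop-helix transcription factor, and krt97 and cyt1 keratins. For cubn they were ctsl.1 (r = 0.87), soul5 (0.86), itgb1a (0.85), twist3 (0.84) and lhfpl6 (0.83), with r between 0.85 and 0.90 over the 14 libraries. For the mean z-score of the 7 genes they were naga (r = 0.95), ctsl.1 (0.93), epdl2 (0.91), twist3 (0.91) and ctsbb (0.91). Of these last 5, 3 encode lysosomal enzymes, the glycosidase alpha-N-acetylgalactosaminidase (naga) and the cathepsins L and B (ctsl.1 and ctsbb).

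The other genes of these pathways were taken from lists with the 7 genes left out. Of 24 further lysosomal enzyme and membrane genes tested, 0 were called against control at any dose, and their median log2 fold change was 0.07 at 10 µg/L, 0.18 at 1 µg/L and 0.17 at 0.1 µg/L. Those with the lowest p at 10 µg/L were psap, the saposin precursor (log2 fold change 0.42, edgeR adjusted p = 0.474), neu1, a sialidase (-0.41, 0.703), and hexb, a hexosaminidase subunit (0.29, 0.719). As a description over the 14 libraries, the mean z-score of this list had r between 0.74 and 0.86 with each of the 7 genes except slc10a2, for which it was -0.02. Of 10 further endocytic genes 0 were called against control, with a median log2 fold change of 0.12 at 10 µg/L, and clathrin heavy chain cltca had the lowest p there (log2 fold change 0.57, edgeR adjusted p = 0.405). The mean z-score of this list had r between -0.28 and 0.07 with cubn, amn, dab2 and lrp2b. The list holds genes such as ap2m1a, rab11a and rab5aa, with 271, 136 and 103 CPM in control larvae. Which tissues of the whole larva these reads came from was not examined, so this r does not describe gut cells alone.

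Of 7 further bile acid genes tested, 0 were called against control at any dose. Of these, 6 of 7 lay below 0 at 10 µg/L with a median log2 fold change of -0.27, and at 1 µg/L 7 of 7 with a median of -0.36, beside -0.02 for all genes at both doses. Of all tested genes, 52.8% lay below 0 at 10 µg/L and 52.2% at 1 µg/L. Of 8 liver markers, 7 lay below 0 at each of these doses, with medians of -0.27 and -0.32. The bile acid genes with the lowest p at 10 µg/L were abcb11b, the bile salt export pump of the liver (log2 fold change -0.67, edgeR adjusted p = 0.786), nr0b2a, a nuclear receptor for bile acid feedback (-0.27, 0.926), and fgf19, the gut hormone of that feedback (-0.45, 0.952). Between 10 and 0.1 µg/L nr0b2a was the 1 called gene of these 7 bile acid genes (log2 fold change -1.07, edgeR adjusted p = 0.0395).

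Other lists also held called genes between 10 and 0.1 µg/L, a comparison that called 7.34% of the tested genes lower. Of the 21 anterior enterocyte genes 10 were called lower (fabp2, apobb.1, mttp, vil1, anpepb, lct, mep1a.1, mep1a.2, mep1b and chia.2), with log2 fold changes from -3.62 for lct to -1.26 for vil1 and a median over the list of -1.73. Of the 8 liver markers 4 were called lower (cp, serpina1l, hpda and cyp2ad2), of the 6 macrophage markers 2 (spi1b and lcp1) and of the 11 pronephric tubule markers 2 (pdzk1 and cdh17). A list name does not give the tissue of a call, which in whole larvae was not examined. The endocytic gene cltca was called higher (log2 fold change 0.78, edgeR adjusted p = 0.0414). Between 1 and 0.1 µg/L mep1a.1 was called lower (log2 fold change -2.63, edgeR adjusted p = 0.0302). Without libraries 1 and 2, 1 library is left at 0.1 µg/L, so that fit cannot decide whether these calls hold. In library 3 of that group the summed level of the 21 anterior enterocyte genes was 1230 CPM, against 168 to 882 CPM at 10 µg/L.

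The anterior enterocyte list, which covers lipid handling and brush border enzymes of the more proximal gut, had medians below 0 at the higher doses. Of its 21 tested genes, 20 lay below 0 at 10 µg/L with a median log2 fold change of -0.63, and at 1 µg/L 19 of 21 with a median of -0.67, but 0 were called at either dose. Over all tested genes the share below 0 was 52.8% at 10 µg/L and 52.2% at 1 µg/L. The lowest p at 10 µg/L belonged to lct, annotated as lactase (log2 fold change -3.07, edgeR adjusted p = 0.0837), mep1a.1, a brush border metalloprotease (-1.60, 0.143), and anpepb, an aminopeptidase (-1.40, 0.149). With 1 and 10 µg/L pooled, lct was called (log2 fold change -2.85, edgeR adjusted p = 0.047). All 21 lay above 0 at 0.1 µg/L, where 2 of 3 libraries stood apart, with a median of 1.09. Of all tested genes 55.5% lay below 0 at that dose. Over the 14 libraries the mean z-score of this list had r = 0.57 with slc10a2, beside 0.59 for the macrophage markers and 0.54 for the pronephric tubule markers with that gene, and between -0.23 and 0.36 with the other 6 genes. These correlations are descriptions over libraries that share their scaling.

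**Figure D5:**
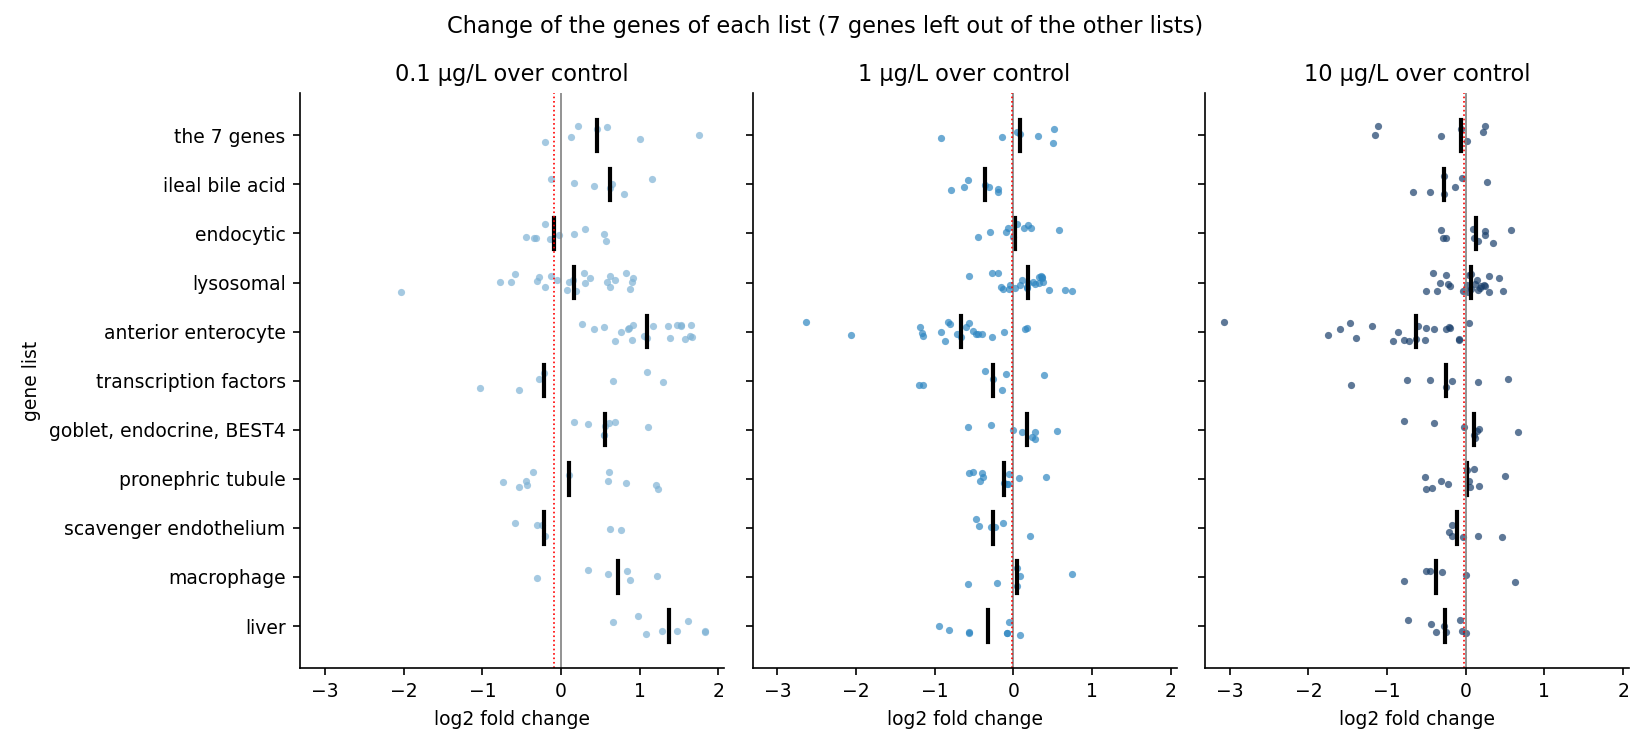
Log2 fold change over control of each gene (points) in the set of 7 and in 10 lists without those 7, at 0.1, 1 and 10 µg/L. Black bars are medians and the red dotted line is the median of all 19092 genes. At 10 µg/L the anterior enterocyte list has a median of -0.63 and the 7 genes one of -0.06, with slc10a2 and amn near -1.1.

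Markers of the other cells that use these genes were set beside them at 10 µg/L. Of 11 pronephric tubule markers 0 were called, with a median log2 fold change of 0.02. Their summed level was 206 to 231 CPM at 10 µg/L, against 208 to 252 CPM in control larvae. In control larvae slc4a4a alone had a mean of 167 CPM, of a mean sum of 226 CPM, so the sum mostly follows that gene. The markers with the lowest p were slc13a3 (0.50), pdzk1 (-0.50) and slc13a1 (-0.52), and slc20a1a had too few reads to be tested. Of 6 macrophage markers 0 were called, with a median of -0.37 and a summed level of 8.83 to 14.2 CPM at 10 µg/L, against 12.7 to 16.2 CPM in control larvae. Of these spi1b, marco and mfap4 had the lowest p (-0.45, -0.51 and 0.63), and mpeg1.1 had too few reads to be tested. Of 6 genes on the scavenger endothelial list 0 were called, with a median of -0.11. Their summed level was 58.4 to 101 CPM at 10 µg/L, against 75.5 to 98.1 CPM in control larvae. Not all genes on this list are specific to scavenger endothelial cells. In control larvae cdh5 had a mean of 46.9 CPM and kdrl one of 16.9 CPM, of a mean sum of 85.9 CPM. This sum thus mostly follows cdh5 and kdrl and says little about stab1 (2.97 CPM) and stab2 (14.0 CPM). Of the 6 genes stab1, cdh5 and kdrl had the lowest p (0.46, -0.21 and -0.17), and lyve1b had too few reads to be tested. Their part in the levels of cubn, amn, dab2, lrp2b and lgmn was not tested.

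The remaining gut and liver lists also held 0 called genes against control at any dose. The median log2 fold change at 10 µg/L was -0.25 over 7 intestinal transcription factor genes (with cdx4 at -1.46 and gata5 at -0.75), 0.11 over 8 goblet, enteroendocrine and BEST4 cell markers (agr2 at -0.78, pyyb at 0.66 and otop2 at -0.40) and -0.27 over 8 liver markers (tfa at -0.74, cyp2ad2 at -0.28 and apom at -0.44). hnf4a and hnf1ba were at 0 reads in 13 and 14 of 16 libraries and best4 in 10 of 16, so these genes gave no information on the cells they mark.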

How the data were processed

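The authors deposited 3 tables, 1 for each dose with the same control columns. They hold raw counts of reads per gene and the authors' log2 fold change, p-value and adjusted p-value. Per the submitters' processing notes, fastp, HISAT2, featureCounts and DESeq2 were used on the build GRCz11, without versions or order. The kit is strand-specific per the labels' protocols, and the strand setting of the counting is not given in the sources used here. Overlap of the 7 genes with other genes was not examined here. Tables were joined by gene identifier, and 10528 cells of genes missing from a table were set to 0. The numbers in control and 1 µg/L columns differ from the sample titles, which ties such columns to their group but to no titled sample. Another 24 columns of per-sample values, the authors' FPKM, were not used.

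Counts were filtered with filterByExpr, scaled with TMM and tested with edgeR 4.0.16 (R 4.3.3, quasi-likelihood F test, robust) in 1 fit of 16 libraries with 12 residual degrees of freedom, with Benjamini-Hochberg adjustment over all 19092 genes. The test was checked on simulated counts. CPM used TMM-scaled library sizes, RPKM divided CPM by the deposited gene length, and log2 CPM a prior count of 2. Standard errors derive from the F statistic, and 95% intervals use them with 12 degrees of freedom. The F test itself uses more degrees of freedom, so the intervals are somewhat wider than its p-values imply. For amn between 10 and 0.1 µg/L, the unadjusted edgeR p was 0.0458 and the interval -3.43 to 0.02. Correlations used permutation tests (scipy 1.17.1). Alternatives were DESeq2 1.42.0, limma 3.58.1 (voom), other scalings, no filter, the compared groups alone, a replicate block and each library left out. Named genes outside the 7 were those with the lowest p at 10 µg/L in each list, genes of the lists called between groups, and those most alike over libraries; 1 gene that this rule names is not reported here. The 7 genes, the lists and the rules were chosen with earlier results of these data known. Sequences were not analysed here.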

Additional observations from a re-analysis of the deposited data

Results flagged for a closer look

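Of 21 gene and group combinations with 4 or 5 libraries, 1 had a library far from the others by Dixon's criterion at 95%, which chance flags in about 1 of 20 groups. lrp2b had 3.53 CPM in control library 4, against 2.09 to 2.24 CPM in the other 3 control libraries. The gap made up 0.90 of the whole range of the group, above the critical value of 0.829. Library 4 was also the highest control library for fabp6, slc10a2 and lgmn. Without it the log2 fold change of lrp2b at 10 µg/L was 0.15 in place of -0.06, and that of slc10a2 was -0.82 in place of -1.15.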

How the results depend on the processing

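At 10 µg/L, at 1 µg/L, with both together, and between 10 and 1 µg/L, 0 of the 7 genes were called under each of 25 alternatives. The counts at 0.1 µg/L and between 10 and 0.1 µg/L depend on 3 libraries at 0.1 µg/L, 2 of which stood apart, and amn and lrp2b rest on few reads. At 0.1 µg/L DESeq2 called 1 of the 7 genes (fabp6), and leaving out 1 library called 0 to 3, the 3 without library 3 at 0.1 µg/L. Between 10 and 0.1 µg/L DESeq2 called 2 of 7. Library size only, the compared groups alone and the replicate block each called 0, and leaving out 1 library gave 0 to 5. Without libraries 1 and 2 at 0.1 µg/L, 1 library is left there, which cannot decide these calls. With 1 library left out, 0 to 3 were called between 1 and 0.1 µg/L. For any difference among the 4 groups it was 0 to 3 as well, and DESeq2 called 2. Over all genes the count between 1 and 0.1 µg/L was 37, against 1423 with DESeq2 and 2 to 6096 with 1 library left out. The 6096 came without library 3 at 0.1 µg/L. The causes were not tested.

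At 10 and 1 µg/L against control, the log2 fold changes that changed sign were near 0 in the main fit (-0.15 to 0.09). At 0.1 µg/L and between 10 and 0.1 µg/L larger ones changed sign too. Among them was the log2 fold change of amn (0.59 and -1.71 in the main fit) and that of fabp6 (1.76 and -1.74). At 10 µg/L that of fabp6 was -0.01 with limma-voom, -0.0012 with library size only and -0.05 with the replicate block, and -0.27 to 0.23 with 1 library left out; that of lrp2b was -0.24 to 0.19 with 1 library left out. At 1 µg/L that of amn was -0.48 with limma-voom, -0.02 with library size only and -0.44 with the block, and -0.44 to 0.43 with 1 library left out. That of lrp2b was -0.09 with limma-voom and -0.17 to 0.38 with 1 library left out, and that of cubn -0.49 to 0.10. At 0.1 µg/L without libraries 1 and 2 the values were -0.38 for fabp6, -0.0029 for slc10a2, -1.88 for amn, -0.02 for dab2, -0.93 for lrp2b and -0.33 for lgmn. With library size only they were -0.28 for slc10a2, -0.12 for amn, -0.43 for lrp2b and -0.09 for lgmn, and with limma-voom -0.12 for amn and -0.04 for lrp2b; with the block that of amn was -0.01. With 1 library left out they ran from -0.09 to 0.54 for slc10a2, -0.45 to 0.11 for cubn, -0.79 to 1.1 for amn and -0.11 to 0.48 for lrp2b. Between 10 and 0.1 µg/L without libraries 1 and 2 the value was 0.42 for fabp6 and 0.79 for amn. The median r of slc10a2 with the other 6 genes, 0.11, was 0.35 over all 16 libraries and -0.03 to 0.22 with 1 library left out, and that among fabp6, cubn, amn, dab2 and lrp2b 0.64 to 0.75, both chosen as summaries after seeing the data.

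Over all genes the count called at 10 µg/L was 43, against 249 with DESeq2, 157 with the compared groups alone, 80 without libraries 1 and 2 at 0.1 µg/L, 8 with the replicate block and 10 to 131 with 1 library left out. At 1 µg/L it was 13, and 5 to 105 with 1 library left out. Between 10 and 0.1 µg/L it was 2025, against 3426 with DESeq2, 154 with the compared groups alone, 544 with the replicate block and 86 to 7151 with 1 library left out. For any difference among the 4 groups it was 447, against 2378 with DESeq2, 53 with the block and 58 to 5349 with 1 library left out. Samples share numbers in the column names. Deviations of same-numbered samples correlated at -0.44 to 0.45 with a mean of -0.04, and 5 of 18 pairs were over 0.1. For samples with different numbers the range was -0.5 to 0.46 with a mean of 0.01, and 27 of 77 pairs were over 0.1. Same-numbered samples were thus no more alike by this measure, which with so few samples cannot exclude a shared exposure or batch. With the replicate block the log2 fold change of slc10a2 at 10 µg/L was -0.94 (edgeR adjusted p = 0.648), and its call between 10 and 0.1 µg/L was lost (-1.45, edgeR adjusted p = 0.0596).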
